A study of Mus musculus with 12 samples.

Results

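The unc5B MUT and wild-type forms of netrin-1 were compared in mouse embryonic stem cells of the line CGR8. The first group, unc5B MUT (n = 3 libraries), carried a vector for a netrin-1 point mutant named for the receptor Unc5b, and the second, netrin-1 WT (n = 3), carried the same vector for the wild-type protein. All cells of the study were held in serum with leukemia inhibitory factor (LIF), and all were stably transfected with the same puromycin-resistance backbone, which was empty in the control group. The 6 libraries were chosen by group label from 12 in the series; the other 6, from control cells and from cells with a netrin-1 mutant named for neogenin (neo1 MUT), entered the fit to estimate the spread. The question posed by the design is how the transcriptome differs between cells with wild-type netrin-1 and cells with a mutant named for 1 of its receptors. The labels do not give the residue changed, its effect on binding, or whether a group is a pool of transfected cells or a single clone.

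Netrin-1, encoded by Ntn1, is a secreted cue related to the laminins, first known for guiding axons. It binds Dcc, the Dcc relative neogenin (Neo1) and Unc5 proteins, and Unc5 receptors are also known as dependence receptors, which can trigger cell death when unbound. Cultures of embryonic stem cells in serum and LIF are mixed: most cells express the pluripotency factors, and rarer cells express the programme of primitive endoderm, the extraembryonic layer that lines the blastocoel, or that of the 2-cell-stage embryo. Primitive endoderm is specified by Gata6, Gata4 and Sox17, lays down basement membrane and takes up nutrients through the cubilin receptor complex.

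The libraries held 23804324 to 59735737 estimated counts in unc5B MUT and 24736421 to 35437997 in netrin-1 WT. Levels are given as counts scaled to library size (CPM) after TMM normalisation, which is not corrected for gene length, so levels are compared between groups and not between genes. The libraries numbered 3 stood apart from those numbered 1 and 2 in both groups: over the 6 libraries the first principal component held 78.5% of the variance and followed the number, and the second held 9.48% and followed the group. Each difference was therefore taken within a number, by fitting the number as a block, and counts are also given without the number 3 libraries, where 13.4% of all genes tested passed. Nothing in the labels states that the 3 libraries of a group were grown separately, so the p-values reflect variation between libraries that may be technical. The cells carried the markers of embryonic stem cells: Pou5f1 stood at 1317, 1098 and 1472 CPM in unc5B MUT libraries 1, 2 and 3, and at 1109, 979 and 1281 CPM in netrin-1 WT. Of 14 fibroblast and feeder markers 7 were too low to be tested and 0 of the other 7 passed the test by edgeR or DESeq2, against 3 at an unadjusted p under 0.05, while without the number 3 libraries Vim (0.48) and Thy1 (1.04) rose, with a list median of 0.40. The list held 237.7 to 331.6 CPM in sum in unc5B MUT and 173.8 to 284.9 CPM in netrin-1 WT, and the part of these cells in the results was not tested.

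Cells with the unc5B MUT protein differed from cells with netrin-1 WT in 414 of 21053 genes tested, or 1.97% (edgeR quasi-likelihood test with the number as a block, Benjamini-Hochberg adjusted p under 0.05). Of these, 211 rose in unc5B MUT (1.002% of the genes tested) and 203 fell (0.964%), and 230 changed by at least 2-fold, 120 upwards and 110 downwards. The largest rises included genes of primitive endoderm, and 40 of the genes that rose lay on chromosome 15, which holds 3.82% of the genes tested. Those that fell included genes of the 2-cell-like state and a run of neighbours on chromosome 3. All 414 had a difference of 1 sign in each of the 3 numbers. In 278 of them every unc5B MUT library lay beyond every netrin-1 WT library, beside 9.42% of all genes tested. Without the block 0 genes passed, against 1059 at an unadjusted p under 0.05, and without the 4 number 3 libraries 2827 passed (13.4%). DESeq2 called 1486 genes (7.06%). Leaving out unc5B MUT library 1, 2 or 3 gave 36, 36 and 121 genes, and leaving out netrin-1 WT library 1, 2 or 3 gave 68, 36 and 1850. All 414 kept their sign in each of these fits. The kept signs, the single sign in all 3 numbers and the 278 genes with groups apart come from the libraries that chose the genes. They are no independent support. Of the 69 genes named here that passed, 15, 16 and 33 passed without unc5B MUT library 1, 2 or 3, and 21, 12 and 69 passed without netrin-1 WT library 1, 2 or 3. In the authors' deposited table of this comparison, 624 of 20347 genes have an adjusted p under 0.05 (3.07%), 332 with a positive and 292 with a negative log2 fold change. The authors' deposited table shares 372 genes with the 414 called here, which is 89.9% of the calls made here and 59.6% of the authors' calls, and the sign is the same in all 372.

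The Ntn1 transcript itself (ENSMUSG00000020902, chromosome 11, 68209364 to 68400823, minus strand, GRCm38) was present at overlapping levels in the 2 groups. It stood at 321.7, 204.4 and 34.9 CPM in unc5B MUT libraries 1, 2 and 3, and at 287.6, 222.8 and 76.9 CPM in netrin-1 WT, beside a mean of 8.43 ± 7.34 CPM (SD, n = 3) in control cells. Both groups were lowest in library 3, and there the log2 difference of unc5B MUT minus netrin-1 WT was -1.14, while the differences in numbers 1 and 2 were 0.16 and -0.12. The fitted log2 fold change was -0.37 ± 0.30 (SE, adjusted p = 0.562, edgeR quasi-likelihood test), and without the number 3 libraries it was 0.0089. The counts hold reads of the cell's own gene and any matching reads of the vector, which cannot be told apart.

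Of the netrin receptors and the partners of these receptors, 1 of 13 tested passed, the partner Flrt3. Without the number 3 libraries a second rose, the adhesion molecule gene Mcam (0.53). Flrt3, a transmembrane protein whose ectodomain binds Unc5 receptors, held 18.5, 11.02 and 5.54 CPM in unc5B MUT libraries 1, 2 and 3, and 2.76, 1.62 and 1.26 CPM in netrin-1 WT. Every unc5B MUT library was above every netrin-1 WT library, and the log2 fold change was 2.59 ± 0.28 (adjusted p = 0.0021). Unc5b, the receptor that gives the mutant its name, held 25.1, 24.8 and 16.4 CPM in unc5B MUT and 19.6, 26.3 and 17.4 CPM in netrin-1 WT (log2 fold change 0.07 ± 0.16, adjusted p = 0.874). Neo1 held 85.2, 76.8 and 30.1 CPM in unc5B MUT and 91.8, 82.2 and 40.8 CPM in netrin-1 WT (-0.21 ± 0.12, adjusted p = 0.407). The Unc5b and Neo1 ranges overlapped between the groups. Dcc was too low to be tested, with 6 counts in the 3 unc5B MUT libraries together and 62 in netrin-1 WT, most of them in library 1 at 1.25 CPM. The median log2 fold change of the 13 was 0.07, beside 0.01 over all genes tested. Among 19 effectors that act below these receptors 0 passed by edgeR, with 4 at an unadjusted p under 0.05. DESeq2, which called 7.06% of all genes, called 1 of them higher and 1 lower. Without the number 3 libraries, where 13.4% of all genes passed, 2 fell. The effector with the largest fold change, the actin-binding protein Ablim1, held 8.12, 11.6 and 11.2 CPM in unc5B MUT and 18.6, 17.95 and 15.8 CPM in netrin-1 WT, ranges that did not overlap (-0.76 ± 0.25, adjusted p = 0.144).

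Primitive endoderm transcription factors rose in unc5B MUT: 7 of 8 passed the test upwards and 0 downwards, with a median log2 fold change of 2.28 over the 8. Sox17 (ENSMUSG00000025902, chromosome 1, 4490931 to 4497354), an SRY-box factor of endoderm, held 10.4, 5.27 and 8.09 CPM in unc5B MUT libraries 1, 2 and 3, and 1.53, 0.796 and 1.55 CPM in netrin-1 WT. Gata6, the zinc finger factor that starts the programme, held 50.7, 39.1 and 40.0 CPM in unc5B MUT and 11.9, 10.8 and 17.1 CPM in netrin-1 WT. Gata4, which acts beside it, held 14.0, 8.64 and 25.04 CPM in unc5B MUT and 3.20, 4.56 and 6.44 CPM in netrin-1 WT. In each of these genes the lowest unc5B MUT library was above the highest netrin-1 WT library, and the log2 fold changes were 2.62 ± 0.32 for Sox17 (adjusted p = 0.00396), 1.69 ± 0.22 for Gata6 (adjusted p = 0.00558) and 1.64 ± 0.36 for Gata4 (adjusted p = 0.0445). Among the later factors, Foxa2 rose by 2.71 ± 0.53, the forkhead factor Foxq1 by 2.34 ± 0.33 and Sox7 by 2.22 ± 0.39 on the log2 scale. Hnf4a, a nuclear receptor of the same lineage, held 27.2, 28.6 and 8.58 CPM in unc5B MUT and 15.03, 9.92 and 3.63 CPM in netrin-1 WT and did not pass (1.18 ± 0.28, adjusted p = 0.0572). In the authors' deposited table Hnf4a has a log2 fold change of 1.20 (adjusted p of 0.0135). All 8 factors had differences above 0 in all 3 numbers, and the list's median difference was 2.36 in number 1, 2.36 in number 2 and 1.73 in number 3. In these libraries of whole cultures, more cells of this type and more RNA per such cell cannot be told apart.

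**Figure D1:**
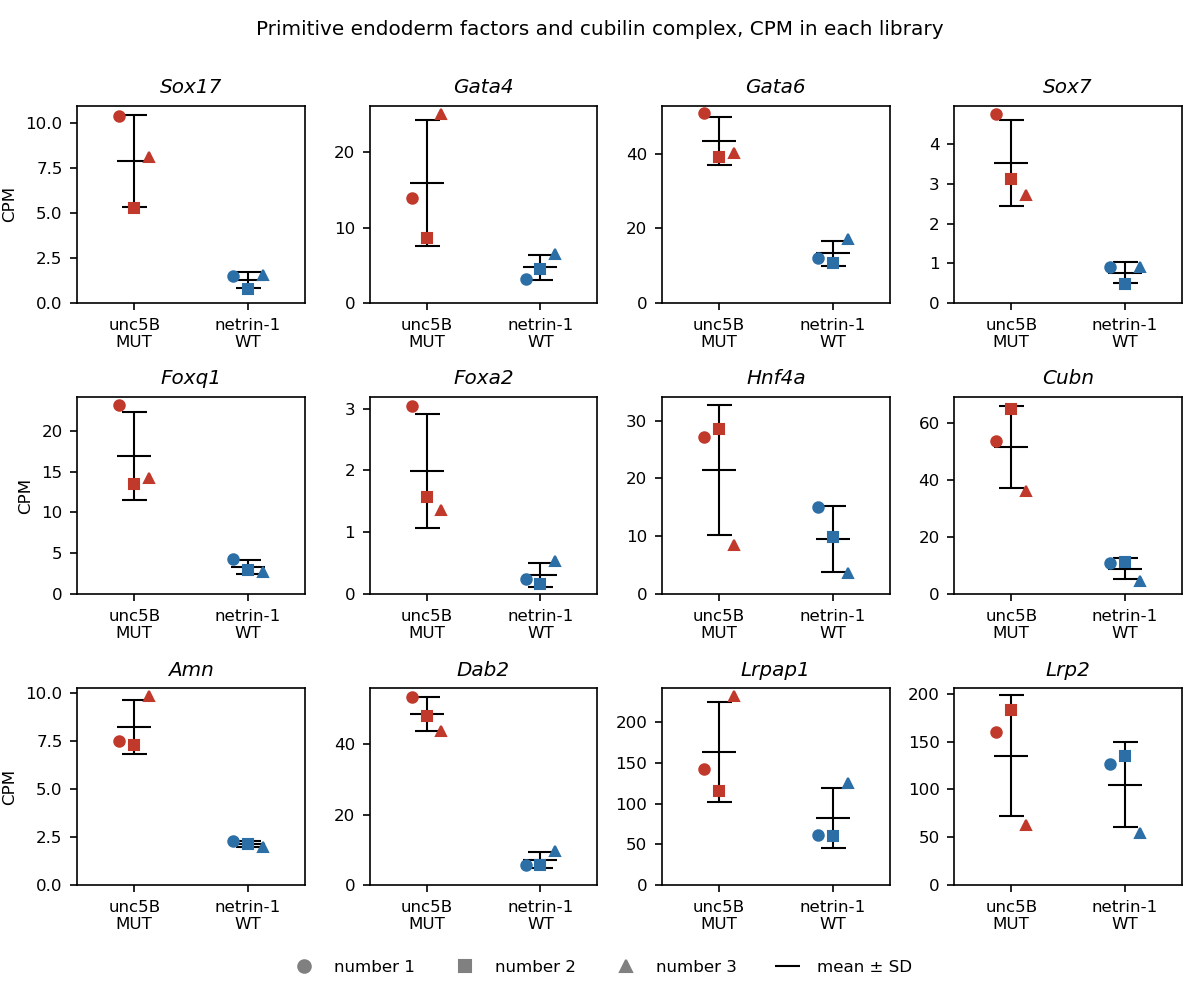
CPM of 7 primitive endoderm transcription factors and of the 5 members of the cubilin complex in each unc5B MUT library (left in each panel) and each netrin-1 WT library (right), with the mean and SD in black; marker shapes give the replicate number. In 9 of the 12 panels the 3 unc5B MUT libraries lie above the 3 netrin-1 WT libraries, and in the panels of Hnf4a, Lrpap1 and Lrp2 the groups overlap.

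The cubilin receptor complex, through which visceral endoderm takes up protein and vitamins, rose with them, with 4 of 5 members passing upwards. Cubn (ENSMUSG00000026726, chromosome 2, 13276338 to 13491813), the large extracellular receptor, held 53.5, 65.0 and 36.3 CPM in unc5B MUT libraries 1, 2 and 3, and 10.998, 11.3 and 4.75 CPM in netrin-1 WT. Its membrane anchor Amn held 7.51, 7.27 and 9.83 CPM in unc5B MUT and 2.31, 2.15 and 1.99 CPM in netrin-1 WT. Dab2, the adaptor that links the complex to clathrin, held 53.4, 48.1 and 43.8 CPM in unc5B MUT and 5.71, 5.89 and 9.74 CPM in netrin-1 WT. None of these 3 genes overlapped between the groups, and the log2 fold changes were 2.58 ± 0.33 for Cubn (adjusted p = 0.00536), 1.91 ± 0.18 for Amn (adjusted p = 0.00167) and 2.75 ± 0.44 for Dab2 (adjusted p = 0.0149). Lrpap1, the chaperone of the receptor family, rose by 1.0 ± 0.15 (adjusted p = 0.00997) with overlapping libraries. Lrp2, the partner receptor megalin, held 160, 182 and 63.3 CPM in unc5B MUT and 126, 135 and 54.4 CPM in netrin-1 WT and did not pass (0.33 ± 0.10, adjusted p = 0.12).

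Bases upstream of the RefSeq start of 4 genes that rose and whose window touches no annotated exon are shown as the sequence context of the endoderm genes: the receptor Cubn, the protease gene Habp2, the trafficking factor Nostrin and the receptor kinase Pdgfra. Each is the 250 bases before the start in the RefSeq table of build GRCm38.p6, written 5′ to 3′ on the gene's strand, at chr2:13491877-13492126 (minus strand), chr19:56287662-56287911 (plus strand), chr2:69135550-69135799 (plus strand) and chr5:75152001-75152250 (plus strand). AGATAA and TGATAA, some of the letters bound by GATA factors, were searched for on either strand and would stand in capitals. None of the 4 windows holds them. Related letters such as AGATAG, which the Habp2 window holds, were not searched for.
Cubn: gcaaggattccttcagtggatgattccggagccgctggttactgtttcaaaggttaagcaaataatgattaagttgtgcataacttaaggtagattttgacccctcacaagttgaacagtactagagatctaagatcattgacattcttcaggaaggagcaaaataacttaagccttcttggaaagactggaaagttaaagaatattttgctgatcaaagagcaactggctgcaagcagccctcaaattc
Habp2: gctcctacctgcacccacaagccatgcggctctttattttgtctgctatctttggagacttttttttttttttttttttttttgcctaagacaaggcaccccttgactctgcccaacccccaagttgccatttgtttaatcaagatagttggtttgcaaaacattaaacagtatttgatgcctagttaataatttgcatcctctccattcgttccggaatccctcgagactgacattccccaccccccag
Nostrin: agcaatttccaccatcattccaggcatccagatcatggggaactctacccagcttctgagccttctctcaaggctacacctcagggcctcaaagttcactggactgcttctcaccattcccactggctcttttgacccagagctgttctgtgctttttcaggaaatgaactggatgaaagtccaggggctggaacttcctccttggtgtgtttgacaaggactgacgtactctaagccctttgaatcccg
Pdgfra: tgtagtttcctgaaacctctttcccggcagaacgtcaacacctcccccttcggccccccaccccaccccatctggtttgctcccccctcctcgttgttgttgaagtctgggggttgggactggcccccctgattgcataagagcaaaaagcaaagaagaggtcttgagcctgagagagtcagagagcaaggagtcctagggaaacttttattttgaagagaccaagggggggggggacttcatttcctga
Of the 24 genes of the endoderm lists that rose, 17 had an entry in the table. AGATAA or TGATAA occurred in 1 of the 17 windows (5.88%), 174 bases before the start of Dab2, and in 15.4% of the windows of all 20595 genes with an entry. A match of letters is a description of these windows and not a binding site.

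Basement membrane genes rose in part: 4 of 12 passed upwards and 0 downwards, with a median log2 fold change of 0.53. Without the number 3 libraries 6 rose and 1 fell, and without netrin-1 WT library 3 alone 5 rose and 1 fell. The gene that fell in both fits is Hspg2, which encodes the proteoglycan perlecan, with a log2 fold change of -0.42 ± 0.15 over all libraries (adjusted p = 0.179). Col4a2 and Col4a1 encode the paired chains of type IV collagen, and in the RefSeq table their starts lie head to head on chromosome 8, 21 bases apart. Col4a2 held 183, 140 and 400 CPM in unc5B MUT libraries 1, 2 and 3, and 49.8, 51.3 and 95.4 CPM in netrin-1 WT. Col4a1 held 472, 333 and 1602 CPM in unc5B MUT and 163, 162 and 533 CPM in netrin-1 WT. The number 3 library was the highest of each group in both genes, and within each number unc5B MUT was above netrin-1 WT (1.81 ± 0.19, adjusted p = 0.00212, and 1.39 ± 0.23, adjusted p = 0.0164, for Col4a2 and Col4a1). Serpinh1, the collagen chaperone, rose by 1.78 ± 0.24 and Sparc, a collagen-binding matrix protein, by 1.31 ± 0.18 on the log2 scale. None of the 4 laminin chains passed by edgeR in the fit of all libraries, while Lama1 and Lamb1 passed without the number 3 libraries and by DESeq2. Lama1 held 310, 160 and 241 CPM in unc5B MUT and 121, 91.8 and 156 CPM in netrin-1 WT, which did not overlap (0.91 ± 0.22, adjusted p = 0.0674), and Lamb1 had a log2 fold change of 1.33 ± 0.38 (adjusted p = 0.101). The chains Lamc1 (0.07 ± 0.12) and Lama5 (-0.13 ± 0.17) lay near 0. Nid1, which ties laminin to collagen, held 161, 147 and 149 CPM in unc5B MUT and 206, 220 and 192 CPM in netrin-1 WT (-0.43 ± 0.16, adjusted p = 0.206).

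Of 16 other primitive endoderm markers tested 9 rose and 0 fell, with a median log2 fold change of 2.01. Pdgfra, the growth factor receptor by which the lineage is often recognised, held 61.1, 32.0 and 39.0 CPM in unc5B MUT libraries 1, 2 and 3, and 8.64, 7.93 and 11.97 CPM in netrin-1 WT (2.16 ± 0.24, adjusted p = 0.00229). Nostrin held 11.002, 6.71 and 11.4 CPM in unc5B MUT and 1.72, 0.822 and 0.969 CPM in netrin-1 WT (3.09 ± 0.29, adjusted p = 0.00167). Neither gene overlapped between the groups. The proteoglycan gene Srgn rose by 2.47 ± 0.39, the chloride channel gene Clic6 by 2.34 ± 0.35 and Fgfr2, a receptor through which FGF4 acts on this lineage, by 1.86 ± 0.33. Rhox5 held 103, 72.5 and 127 CPM in unc5B MUT and 21.4, 19.7 and 176 CPM in netrin-1 WT, so that it was higher in unc5B MUT in numbers 1 and 2 and lower in number 3 (0.95 ± 0.57, adjusted p = 0.413). Apoe had a log2 fold change of 0.13 ± 0.14 (adjusted p = 0.657). Ttr, Afp, Apoa1 and Thbd, markers of later endoderm, were too low to be tested.

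Over the 4 endoderm lists together, 24 of 41 tested genes rose (58.5%) and 0 fell, beside 1.002% of all genes tested that rose. Their median log2 fold change was 1.64, with median differences of 1.87, 1.52 and 1.26 in numbers 1, 2 and 3. In 22 of the 41 every unc5B MUT library was above every netrin-1 WT library, which 4.997% of all genes tested were. Without the number 3 libraries 29 passed upwards, among them Hnf4a and all 8 transcription factors, and 1 downwards, Hspg2, which also fell without netrin-1 WT library 3 alone. Leaving out unc5B MUT library 1, 2 or 3 left 10, 10 and 14 passing upwards, and leaving out netrin-1 WT library 1, 2 or 3 left 11, 6 and 26. The median stayed between 1.38 and 1.78 in these 6 fits. The lists were written with earlier results of these data known. Neither these shares nor the list members among the largest rises are therefore independent support.

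Of the 12 genes with the largest rise in unc5B MUT, taken among the 157 that passed with at least 5 CPM in the higher group and a conventional symbol, 7 were members of the endoderm lists: Habp2, Dkk1, Aqp8, Nostrin, Bmper, Dab2 and Sox17. Habp2, a secreted serine protease that binds hyaluronan, held 5.18, 3.92 and 11.95 CPM in unc5B MUT libraries 1, 2 and 3, and 0.664, 0.371 and 0.242 CPM in netrin-1 WT (3.78 ± 0.71, adjusted p = 0.0283). Dkk1, a secreted antagonist of Wnt signalling, held 10.4, 4.38 and 6.41 CPM in unc5B MUT and 0.935, 0.292 and 0.485 CPM in netrin-1 WT (3.69 ± 0.34, adjusted p = 0.00167). Both genes were apart in all libraries, and with netrin-1 WT under 1 CPM their fold changes rest on few counts in that group. The water channel gene Aqp8 rose by 3.46 ± 0.57 and Bmper, which encodes a secreted BMP-binding protein, by 2.83 ± 0.55 on the log2 scale. The other 5 of the 12 were Apobec2 (3.03 ± 0.52), a member of the cytidine deaminase family, Hkdc1 (3.02 ± 0.65), a hexokinase-like enzyme, the basic helix-loop-helix factor gene Tcf23 (3.0 ± 0.31), the glycerolipid enzyme gene Gpat3 (2.74 ± 0.41) and Klb (2.72 ± 0.36), the co-receptor of endocrine FGFs. Each of the 12 had its 3 unc5B MUT libraries above its 3 netrin-1 WT libraries, beside 4.997% of all genes tested. The same libraries chose the 12, so this is no independent support.

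**Figure D2:**
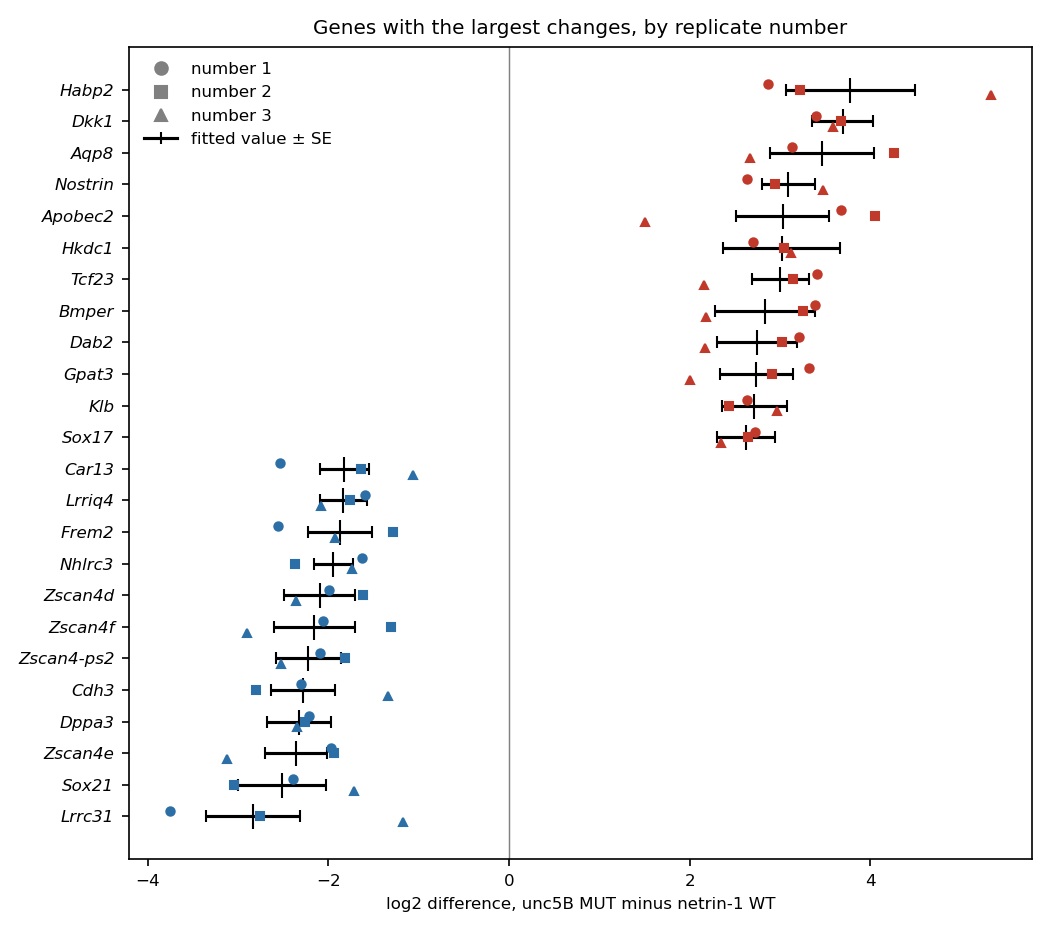
Log2 difference of unc5B MUT minus netrin-1 WT for the 12 genes each way with the largest fitted change; coloured markers give the difference within each replicate number, from log2 CPM with a prior count of 2, and black bars the fitted value ± SE. All 72 differences lie on the side of their fitted value, as the rule that chose the genes required, between 1.51 and 5.33 for the genes that rose and between -3.75 and -1.06 for those that fell.

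Of the 12 genes with the largest fall in unc5B MUT, taken from 163 by the same limits, 4 belonged to the Zscan4 family and 5 lay on chromosome 3 between 5 and 55 Mb. The Zscan4 genes mark the rare cells that resemble the 2-cell embryo. Zscan4d held 1.46, 1.70 and 0.761 CPM in unc5B MUT libraries 1, 2 and 3, and 5.98, 5.33 and 4.12 CPM in netrin-1 WT (-2.10 ± 0.39, adjusted p = 0.0273). Zscan4e held 2.14, 2.11 and 0.380 CPM in unc5B MUT and 8.56, 8.25 and 3.73 CPM in netrin-1 WT (-2.36 ± 0.34, adjusted p = 0.00976). The groups did not overlap in either gene. Zscan4f and Zscan4-ps2, which is named as a pseudogene and annotated as protein coding, fell by 2.16 ± 0.45 and 2.22 ± 0.36. Of the 16 genes of the 2-cell-like list that were tested Zscan4d, Zscan4e and Zscan4f fell (3 genes), 0 rose, and the median log2 fold change was -1.88, with median differences of -1.66, -1.29 and -2.13 in numbers 1, 2 and 3. Zscan4c held 2.43, 2.81 and 1.09 CPM in unc5B MUT and 9.37, 8.19 and 3.34 CPM in netrin-1 WT without passing (adjusted p = 0.0733). In the authors' deposited table Zscan4c has a log2 fold change of -1.76 (adjusted p of 0.0272). In 9 of the 16 every unc5B MUT library was below every netrin-1 WT library, which 4.43% of all genes tested were. Of the 16, 9 fell without the number 3 libraries. Leaving out unc5B MUT library 1, 2 or 3 left 0, 0 and 1 passing, and leaving out netrin-1 WT library 1, 2 or 3 left 1, 0 and 4, the last with a median of -1.22. The Zscan4 copies are nearly identical and their counts may have been divided between them, so the family is better read as a whole.

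Of 12 core factors 0 passed the test by edgeR in either direction, with 4 at an unadjusted p under 0.05 and a median log2 fold change of 0.19. DESeq2, which called 7.06% of all genes, called 1 higher and 1 lower of the 12, and without the number 3 libraries, where 13.4% of all genes passed, 3 rose and 1 fell. Pou5f1 had a log2 fold change of 0.20 ± 0.09 (adjusted p = 0.247), and its libraries overlapped between the groups. Nanog held 266, 154 and 157 CPM in unc5B MUT libraries 1, 2 and 3, and 238, 183 and 441 CPM in netrin-1 WT, so that the difference came mostly from number 3 (-0.61 ± 0.30, adjusted p = 0.314). Sox2 held 384, 410 and 273 CPM in unc5B MUT and 617, 739 and 316 CPM in netrin-1 WT (-0.59 ± 0.14, adjusted p = 0.0537). It was the core factor that fell by DESeq2, without the number 3 libraries and without netrin-1 WT library 3 alone. In the authors' deposited table Sox2 has a log2 fold change of -0.62 (adjusted p of 0.0183), and Dppa2, another core factor, has 0.81 (adjusted p of 0.0492). Sox2 was below netrin-1 WT in each number, and it lies within the part of chromosome 3 whose genes are lower as a whole. Of 15 naive pluripotency genes 1 fell and 0 rose, with a median of -0.22. DESeq2 called 3 lower, 1 rose and 2 fell without the number 3 libraries, and 2 fell without netrin-1 WT library 3 alone, while the other 5 fits with 1 library left out gave 0 at the adjusted threshold. The gene that passed was Dppa3, a maternal factor that protects DNA methylation marks and varies among embryonic stem cells. It held 0.659, 1.09 and 1.30 CPM in unc5B MUT and 3.27, 5.41 and 6.88 CPM in netrin-1 WT (-2.32 ± 0.35, adjusted p = 0.0116). Its groups did not overlap. Prdm14 held 10.6, 8.91 and 10.1 CPM in unc5B MUT and 16.5, 13.02 and 16.7 CPM in netrin-1 WT, also apart, and did not pass (-0.64 ± 0.18, adjusted p = 0.099). Esrrb had a log2 fold change of -0.22 ± 0.16 (adjusted p = 0.515). Fgf4, the ligand that embryonic stem cells offer to primitive endoderm, held 141, 131 and 103 CPM in unc5B MUT and 191, 189 and 137 CPM in netrin-1 WT (-0.46 ± 0.12, adjusted p = 0.0756).

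Other lineage lists held few changes. Their counts stand beside 7.06% of all genes called by DESeq2 and 13.4% passing without the number 3 libraries. Of 10 neuroectoderm genes 1 fell and 0 rose, and without the number 3 libraries 1 fell and 3 rose. Sox21, the one that fell, had 4.68, 5.75 and 0.978 CPM in unc5B MUT libraries 1, 2 and 3 and 24.8, 47.7 and 3.34 CPM in netrin-1 WT (-2.51 ± 0.49, adjusted p = 0.0305). The Sox21 libraries overlapped, since netrin-1 WT library 3 was below unc5B MUT libraries 1 and 2. Of 9 mesendoderm genes 2 rose, Sox17 and Foxa2, which are also endoderm factors, and 1 fell without the number 3 libraries. Of 13 trophectoderm genes 0 passed by edgeR, with 2 at an unadjusted p under 0.05. DESeq2 called 1 lower, and without the number 3 libraries 1 rose and 2 fell. Gata3, a trophectoderm factor, held 0.820, 2.35 and 12.98 CPM in unc5B MUT and 4.72, 4.80 and 22.1 CPM in netrin-1 WT (-1.37 ± 0.31, adjusted p = 0.0549). In the authors' deposited table Gata3 has a log2 fold change of -1.35 (adjusted p of 0.0419). Among 3 cadherins Cdh3, or P-cadherin, fell, with 3.39, 4.38 and 3.21 CPM in unc5B MUT and 17.0, 30.9 and 8.19 CPM in netrin-1 WT (-2.28 ± 0.36, adjusted p = 0.013). Cdh1, the E-cadherin of embryonic stem cells, had a log2 fold change of -0.31 ± 0.15 (adjusted p = 0.324) and fell without the number 3 libraries (-0.57). Among 13 integrins 0 passed by edgeR, with 4 at an unadjusted p under 0.05 and 1 called each way by DESeq2. The closest was Itga5, a fibronectin receptor chain, with 210, 166 and 214 CPM in unc5B MUT and 115, 109 and 175 CPM in netrin-1 WT (0.58 ± 0.14, adjusted p = 0.0629). Without the number 3 libraries 1 integrin rose and 2 fell.

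**Figure D3:**
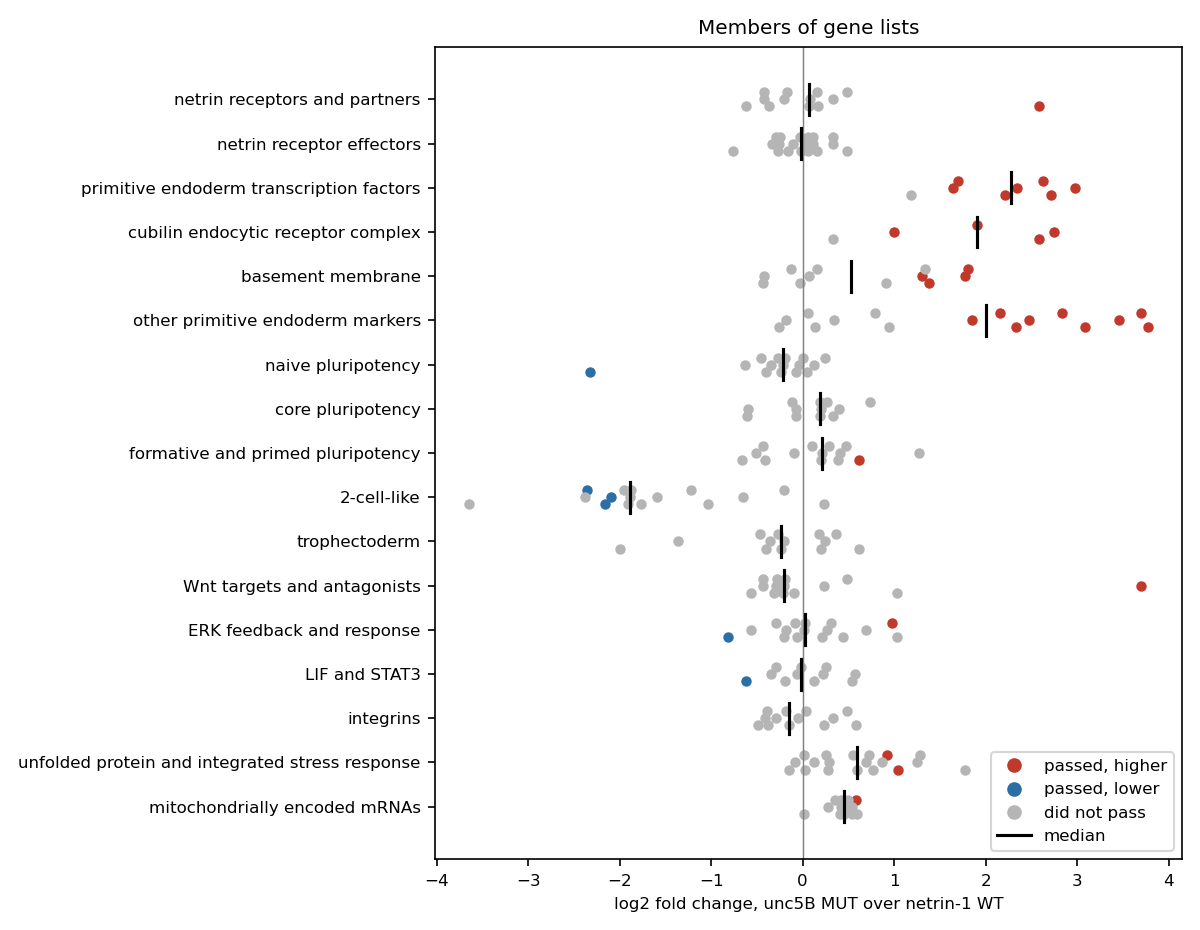
Log2 fold change of unc5B MUT over netrin-1 WT for the tested members of 17 gene lists, 1 dot per gene, coloured by whether the gene passed the test upwards (red), downwards (blue) or not (grey), with the list median as a black bar. The 4 endoderm lists hold 24 of the red dots, the 2-cell-like list has its median at -1.88, and the receptor and effector lists centre on 0.07 and -0.01.

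Lists of signalling targets held 1 or 2 passing genes each, and more without the number 3 libraries, where 13.4% of all genes tested passed. Of 14 Wnt targets and antagonists 1 rose, Dkk1, with a list median of -0.21. Of 16 genes of ERK feedback and response Phlda1, a growth-factor-induced gene, rose by 0.97 ± 0.20 and Spry1, a feedback inhibitor that lies on the chromosome 3 part, fell by 0.81 ± 0.15. Of 11 LIF and STAT3 genes the kinase gene Pim1 fell, with 104, 112 and 89.6 CPM in unc5B MUT libraries 1, 2 and 3 and 163, 205 and 112 CPM in netrin-1 WT (-0.62 ± 0.12, adjusted p = 0.0293). Of 14 BMP genes Bmp2, a ligand made by visceral endoderm, rose by 2.41 ± 0.44 at levels of 0.543 to 1.002 CPM in unc5B MUT and 0.123 to 0.194 CPM in netrin-1 WT. Of 11 FGF and PDGF ligands and receptors Pdgfra and Fgfr2 rose. Among the Wnt genes 2 rose and 2 fell without the number 3 libraries, and in the same fit 3 ERK genes rose and 1 fell, 2 LIF genes rose and 2 fell, 2 BMP genes rose and 1 fell, and 3 FGF and PDGF genes rose and 1 fell. Of 10 DNA methylation enzymes the de novo methyltransferase gene Dnmt3a rose, with 285, 326 and 439 CPM in unc5B MUT and 218, 217 and 241 CPM in netrin-1 WT (0.61 ± 0.13, adjusted p = 0.0415). Its relative Dnmt3b held 234, 213 and 192 CPM in unc5B MUT and 186, 161 and 119 CPM in netrin-1 WT (0.48 ± 0.13, adjusted p = 0.0823). Neither gene overlapped between the groups. Of 22 imprinted genes the non-coding RNA gene H19 rose by 1.43 ± 0.26, with 27.6, 36.6 and 117 CPM in unc5B MUT and 8.66, 15.4 and 43.7 CPM in netrin-1 WT. DESeq2, which called 7.06% of all genes, called 2 imprinted genes higher and 3 lower. Without the number 3 libraries 5 imprinted genes rose and 3 fell.

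Genes of the unfolded protein and integrated stress responses had a median log2 fold change of 0.60, with 2 of 19 passing upwards and 0 downwards. Psat1, a serine synthesis enzyme under Atf4, held 207, 188 and 290 CPM in unc5B MUT libraries 1, 2 and 3, and 94.2, 80.9 and 227 CPM in netrin-1 WT (0.92 ± 0.17, adjusted p = 0.0245). Herpud1, a factor of protein degradation at the endoplasmic reticulum, rose by 1.04 ± 0.21 (adjusted p = 0.0355). Atf4 itself held 229, 129 and 395 CPM in unc5B MUT and 44.2, 40.5 and 364 CPM in netrin-1 WT, so that numbers 1 and 2 differed widely and number 3 did not (1.25 ± 0.39, adjusted p = 0.132). The list's median difference was 0.81 in number 1, 0.69 in number 2 and 0.16 in number 3. Without the number 3 libraries, where 13.4% of all genes tested passed, 9 of the 19 rose. The 13 mitochondrially encoded mRNAs had a median of 0.45, median differences of 0.60, 0.62 and 0.11 in numbers 1, 2 and 3, and only mt-Atp6 passing (0.58 ± 0.12, adjusted p = 0.0368). Without the number 3 libraries 10 of the 13 rose. Without netrin-1 WT library 3 alone, 7 of the 19 stress genes and 6 of the 13 mitochondrial mRNAs rose, and the other 5 fits with 1 library left out gave 0 to 1 and 0 to 3.

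Part of the difference followed position on the chromosomes. On chromosome 3 from 5 to 55 Mb, 63 of 235 genes tested fell and 0 rose in unc5B MUT. This stretch holds 1.12% of the genes tested and 31.0% of all genes that fell. Among its 96 genes over 10 CPM the median log2 fold change was -0.68, with -0.72, -0.73 and -0.55 in numbers 1, 2 and 3, and 88 of the 96 were below 0, beside a median of 0.05 over all genes over 10 CPM. The median was -1.24 from 50 to 55 Mb and 0.17 from 55 to 60 Mb, where 3 genes fell and 1 rose. On the chromosome outside the stretch the median was 0.26, and 26 of 822 genes tested rose and 4 fell. That part holds 3.90% of the genes tested and 12.3% of all genes that rose. Supt20 (ENSMUSG00000027751, chromosome 3, 54692807 to 54728766, plus strand, GRCm38), a gene of a chromatin-modifying complex, had the lowest adjusted p of the comparison and was named for that after its values were seen. It held 120.9, 115.5 and 98.3 CPM in unc5B MUT libraries 1, 2 and 3, and 303.1, 332.1 and 231.8 CPM in netrin-1 WT (-1.37 ± 0.11, adjusted p = 0.00134). Its groups were far apart. The most abundant genes of the stretch that fell were Ect2, a guanine exchange factor of cell division (-0.76 ± 0.09), Fxr1, an RNA-binding protein (-0.76 ± 0.11), Naa15, a subunit of an N-terminal acetyltransferase (-0.73 ± 0.12), and Actl6a, an actin-like subunit of chromatin remodellers (-0.55 ± 0.10). The genes Lrrc31 (-2.83 ± 0.52), Nhlrc3 (-1.94 ± 0.22), Frem2 (-1.87 ± 0.35), Lrriq4 (-1.83 ± 0.26) and Car13 (-1.82 ± 0.27), all among the 12 largest falls, lie there too. So do single members of other lists, Skil (-0.90 ± 0.18), a repressor of Nodal signalling, and Zmat3 (-0.71 ± 0.11), a p53 target, while the germline factor gene Sohlh2 (-1.43 ± 0.19) lies just past 55 Mb. Without the number 3 libraries 96 genes of the stretch fell. Leaving out unc5B MUT library 1, 2 or 3 left 8, 9 and 25, and leaving out netrin-1 WT library 1, 2 or 3 left 18, 11 and 89, while the median stayed between -0.74 and -0.64.

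Chromosome 6 from 120 to 140 Mb moved in the same direction, with 23 of 195 genes falling, 0 rising and a median of -0.42 over 81 genes. It holds 0.926% of the genes tested and 11.3% of all genes that fell, and 53 fell and 3 rose without the number 3 libraries. Leaving out unc5B MUT library 1, 2 or 3 left 0, 0 and 7 falling by edgeR, and leaving out netrin-1 WT library 1, 2 or 3 left 2, 0 and 46. Slc2a3, a glucose transporter, held 489, 521 and 590 CPM in unc5B MUT libraries 1, 2 and 3, and 1159, 1340 and 1225 CPM in netrin-1 WT (-1.24 ± 0.18, adjusted p = 0.0104). Its groups did not overlap. Nanog and Dppa3, described above, lie in the same stretch, as do Necap1 (-0.67 ± 0.11), a gene of clathrin-coated vesicles, and the tetraspanin gene Cd9 (-0.65 ± 0.12). Chromosome 15 moved the other way: 40 of 805 genes rose, which is 18.96% of all genes that rose on 3.82% of the genes tested, 1 fell, and the median over 400 genes was 0.36, with 0.52, 0.45 and 0.17 in numbers 1, 2 and 3. On this chromosome 234 genes rose and 3 fell without the number 3 libraries. Leaving out unc5B MUT library 1, 2 or 3 left 1, 1 and 5 rising, and leaving out netrin-1 WT library 1, 2 or 3 left 2, 1 and 201. Its most abundant genes that rose were the ribosomal protein gene Rpl8 (0.52 ± 0.08), Cct5 (0.49 ± 0.11) of the chaperonin, Eif3h (0.63 ± 0.10) of the translation initiation machinery and the zinc finger gene Zfp706 (0.79 ± 0.15). The cholesterol enzyme gene Sqle (0.51 ± 0.10) and Dab2 are on chromosome 15, and the fold change of Dab2 lies far above the chromosome's median. Of the 19 genes of its pathway 1 rose, Sqle, and 0 fell, and without the number 3 libraries 1 rose and 3 fell. The comparisons with control share its libraries. On the chromosome 3 stretch the medians were 0.19 for unc5B MUT over control and 0.92 for netrin-1 WT over control. The rest of chromosome 3 had 0.20 and -0.07, chromosome 6 from 120 to 140 Mb had -0.01 and 0.40, and chromosome 15 had 0.04 and -0.34. For neo1 MUT over netrin-1 WT, which shares the netrin-1 WT libraries, the median was -0.80 on the chromosome 3 stretch. It was 0.09 on the rest of chromosome 3, -0.38 on chromosome 6 from 120 to 140 Mb and -0.12 on chromosome 15.

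**Figure D4:**
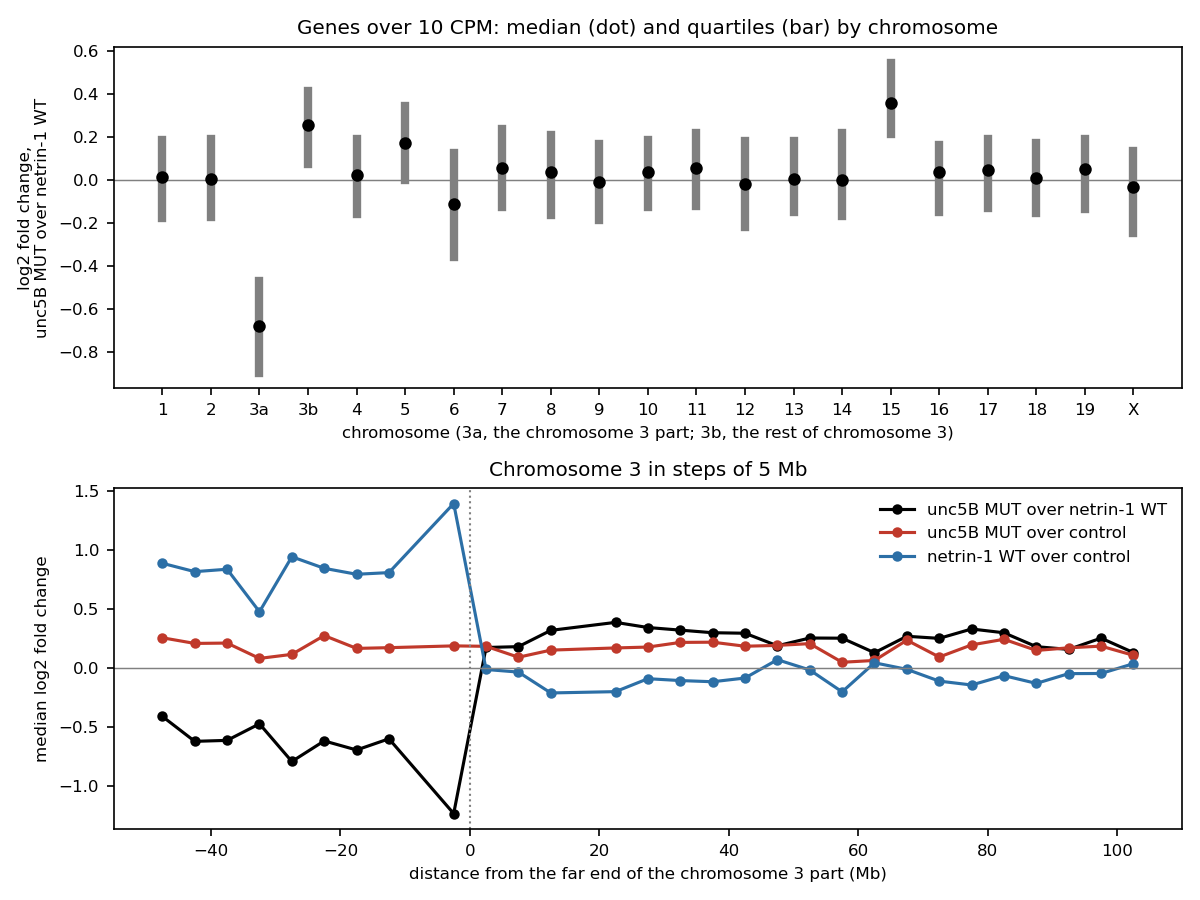
Upper panel: median (dot) and quartiles (bar) of the log2 fold change of unc5B MUT over netrin-1 WT for genes over 10 CPM on each chromosome, with chromosome 3 split into the stretch from 5 to 55 Mb (3a) and the rest (3b). Lower panel: medians along chromosome 3 in steps of 5 Mb against the distance from the end of that stretch, where unc5B MUT over netrin-1 WT (black) changes from -1.24 just before the dotted line to 0.17 just after it; the medians over control are in red for unc5B MUT and in blue for netrin-1 WT.

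A small run of neighbours on chromosome 11, named after its values were seen, fell in unc5B MUT without the stretch around it. Strada, the pseudokinase that activates the kinase LKB1, held 14.3, 14.5 and 16.1 CPM in unc5B MUT libraries 1, 2 and 3, and 30.5, 32.7 and 41.1 CPM in netrin-1 WT (-1.20 ± 0.13, adjusted p = 0.00212). Limd2, which encodes a LIM domain protein, held 10.4, 13.2 and 14.9 CPM in unc5B MUT and 29.9, 33.1 and 30.6 CPM in netrin-1 WT (-1.30 ± 0.18, adjusted p = 0.00835). Map3k3, a kinase of the MAP kinase cascade, held 23.3, 24.7 and 29.4 CPM in unc5B MUT and 51.7, 62.9 and 39.0 CPM in netrin-1 WT (-0.99 ± 0.17, adjusted p = 0.0192). In all 3 genes every unc5B MUT library was below every netrin-1 WT library. The genes lie side by side in GRCm38, Map3k3 at 106084613 to 106155446 on the plus strand, Limd2 at 106156256 to 106160860 and Strada at 106163330 to 106202168 on the minus strand. Against control cells, whose mean was 28.7 CPM for Strada, 25.8 CPM for Limd2 and 50.8 CPM for Map3k3, the log2 fold changes of unc5B MUT were -0.94 ± 0.13, -1.01 ± 0.18 and -0.98 ± 0.17, and those of netrin-1 WT were 0.26 ± 0.12, 0.30 ± 0.18 and 0.01 ± 0.17. Of the flanking genes that were tested, Dcaf7 (-0.21 ± 0.11), Taco1 (0.54 ± 0.22), Ccdc47 (0.10 ± 0.17), Ddx42 (0.05 ± 0.11) and Psmc5 (0.42 ± 0.13) did not pass, and the next gene after Strada, Ccdc47, overlaps its annotated span. Of the 7 members of the LKB1 list that were tested 1 passed, Strada. Prkaa1, a catalytic subunit of the kinase AMPK that LKB1 activates, held 57.1, 56.1 and 31.7 CPM in unc5B MUT and 35.9, 39.97 and 26.8 CPM in netrin-1 WT (0.47 ± 0.12, adjusted p = 0.0769), and it rose by DESeq2, without the number 3 libraries and without netrin-1 WT library 3 alone. In the authors' deposited table it has a log2 fold change of 0.50 with an adjusted p of 0.0291.

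**Figure D5:**
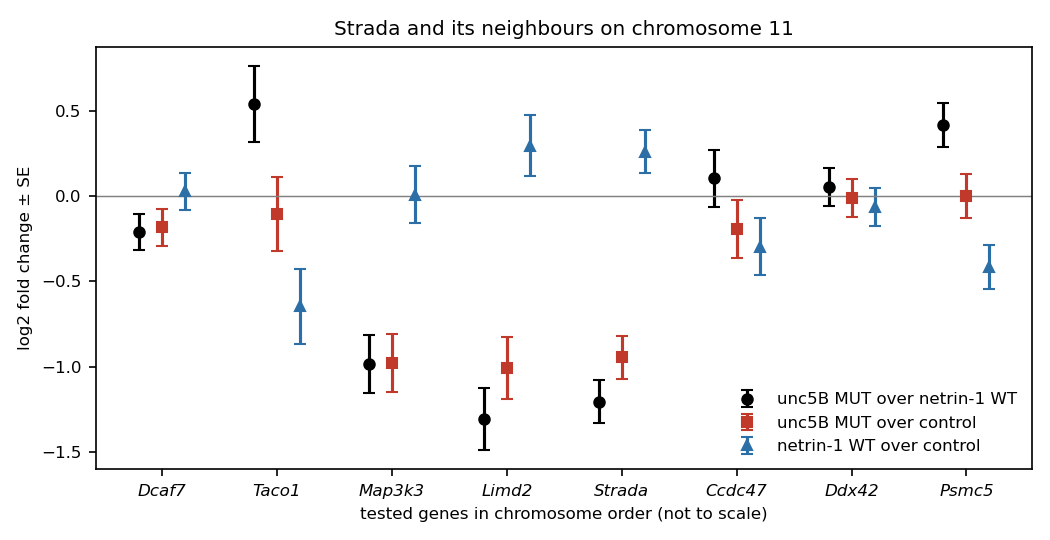
Log2 fold change ± SE of unc5B MUT over netrin-1 WT (black circles), unc5B MUT over control (red squares) and netrin-1 WT over control (blue triangles) for 8 neighbouring tested genes in their order on chromosome 11. Map3k3, Limd2 and Strada lie between -1.30 and -0.94 in both comparisons of unc5B MUT, while the other 5 genes lie between -0.21 and 0.54 in them.

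The levels of control cells place these differences, with the reservation that the comparisons share libraries and are given side by side. Among the 211 genes that rose in unc5B MUT the median log2 fold change over control was -0.01 for unc5B MUT and -1.14 for netrin-1 WT. Among the 203 that fell it was 0.06 for unc5B MUT and 1.05 for netrin-1 WT. The control mean lay between the means of the 2 groups in 99 of the genes that rose, beyond unc5B MUT in 111 and beyond netrin-1 WT in 1, and for the genes that fell these counts were 84, 117 and 2. Over the 4 endoderm lists the median was -0.51 for unc5B MUT over control and -1.95 for netrin-1 WT over control, and Cubn averaged 51.6 ± 14.5 CPM in unc5B MUT, 9.01 ± 3.69 CPM in netrin-1 WT and 125 ± 22.4 CPM in control (SD, n = 3 each). Sox17 averaged 7.91 ± 2.56 CPM in unc5B MUT, 1.29 ± 0.429 CPM in netrin-1 WT and 13.3 ± 4.93 CPM in control. For the same 211 and 203 genes the median log2 fold change of neo1 MUT over netrin-1 WT was 0.24 and -0.53. Libraries of neo1 MUT, which also entered the fit, stood apart in 8 Y-linked genes, with 3.01 to 3.88 CPM in sum, against 152.7 to 220.7 CPM in unc5B MUT, 138.3 to 198.9 CPM in netrin-1 WT and 182.0 to 260.2 CPM in control. With only the 6 libraries of unc5B MUT and netrin-1 WT fitted, 136 genes passed, of which 120 were among the 414.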

How the data were processed

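Total RNA of 12 libraries was sequenced, and the authors deposited estimated counts per Ensembl gene, which are mostly not whole numbers. A second deposited table lists comparisons; per the file headers its columns are log2 fold changes, signed pseudo fold changes (scores, not used in the text) and p-values, raw and adjusted. Per the submitters' processing notes, the tools were DESeq2, STAR 2.5.2b, R 3.3.2, FastQC 0.11.5 and both Bowtie versions. Which program estimated the counts, and whether it used strand, was not given in the sources used here. Counts of overlapping or near-identical genes are therefore uncertain.

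After rounding, edgeR 4.0.16 was run under R 4.3.3 (TMM, filterByExpr, quasi-likelihood F-test, Benjamini-Hochberg adjustment, threshold 0.05) in 1 fit of all 12 libraries, with the replicate number as a block. The design had assumed whole counts. Of 52661 IDs 52566 matched GENCODE M21 (GRCm38). An exact permutation test of 3 against 3 libraries cannot go below 0.1 and was not used. The numbers come from the sample titles. The deviations of same-numbered libraries from their group means correlated by 0.58 to 0.88 over 18 pairs, above the minimum of 0.1 for treating them as pairs. Between unc5B MUT and netrin-1 WT libraries of different number they correlated by -0.83 to 0.76. Netrin-1 WT library 1 correlated more with unc5B MUT library 2 (0.76) than with unc5B MUT library 1 (0.69). With number 3 apart in every group, the check cannot show that numbers 1 and 2 are matched. Within-number differences use log2 CPM with a prior count of 2. The fit was tested on simulated data.

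Genes were named by rule: 12 each way by fold change among genes passing with at least 5 CPM in the higher group, 1 sign in all 3 numbers and a conventional symbol, a fixed set of receptor, pluripotency and endoderm genes, up to 4 members per list and the 4 most abundant passing genes per chromosome part; list members outside it, Supt20 and the chromosome 11 neighbours were added after values were seen. A member of the endoderm lists that is counted in them is not reported here. The comparison, lists and chromosome parts were chosen with earlier results of these data known, so their counts are no independent support. Alternatives were RLE scaling, other filters, DESeq2 1.42.0, limma-voom (limma 3.58.1), fewer libraries, no block and a threshold of 0.01.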

Additional observations from a re-analysis of the deposited data

How the results depend on the processing

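The number of genes that passed was 414 and depended on the model. It was 0 with no replicate block, which leaves the number effect in the residual spread, 669 with no filter beyond 1 count, 1486 with DESeq2, 901 with limma-voom, 136 with only the 6 libraries of both groups, 2827 with the number 3 libraries left out and 63 at a threshold of 0.01. Leaving out each replicate gave 36 to 1850. The 24 endoderm genes that rose became 0 with no replicate block and 13 at 0.01, and 6 to 26 with a replicate left out. The 63 genes that fell on chromosome 3 became 0 with no replicate block, 99 with DESeq2, 28 with only the 6 libraries, 96 with the number 3 libraries left out and 18 at 0.01, and 8 to 89 with a replicate left out. In every alternative run the pooled endoderm median and the medians of the 3 chromosome parts moved by less than the spread between numbers. Single endoderm lists were not held to this comparison. The median of the other primitive endoderm markers was 2.01 over 16 genes, and 1.43 over 20 genes with no filter beyond 1 count. All 414 genes kept their sign wherever they were tested. The sign of genes that had not passed turned for Ntn1 (0.0089) and Lamc1 (-0.059) with the number 3 libraries left out, and with a replicate left out for Unc5b (-0.036 to 0.14), Ccdc47 (-0.045 to 0.20) and Lamc1 (-0.028 to 0.17). The cause of these shifts was not tested. With 3 libraries a group, and the number 3 libraries at the lowest depth, changes in genes of a few CPM are the least certain.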
